A study of Mus musculus with 9 samples.

Results

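The 47 genes described here encode parts that build and supply cilia, chosen for the photoreceptor's connecting cilium. They were listed by symbol from 4 classes, the BBSome, intraflagellar transport, the transition zone and ciliary lipid-protein traffic, and kept where the mean over the 9 libraries was at least 1 FPKM (fragments scaled by gene length and library depth). This filter was part of the choice, so all 47 meet it. Of the 35397 genes in the table, 14588 reached the same mean. The outer segment of a rod or cone is a modified primary cilium, joined to the cell body by a narrow connecting cilium that corresponds to the transition zone of other cilia. Proteins of the light-sensing membrane are made in the inner segment and must pass through this neck, carried by kinesin-driven intraflagellar transport particles outward and by dynein inward, with the BBSome acting as a cargo adaptor. Mutations in many of these genes cause retinal dystrophy, alone or with kidney, brain or skeletal disease.

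Retinal RNA was sequenced from 4 db/db libraries (numbered 1, 3, 4 and 5 in the labels) and 5 wild-type libraries (1 to 5). Mice of the db/db strain carry a defective leptin receptor and develop obesity with diabetes, and the design sets their retinas against those of wild-type mice. Age, sex, litter and batch are not in the labels, nor whether a library stands for 1 animal, so the p-values speak for the spread among libraries, which may be technical. These are bulk retinal libraries, so fewer cells of a type and less RNA per cell cannot be told apart. Nor can the share of photoreceptors in a gene's level be told.

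Reads recovered from the FPKM steps numbered 36.6 to 47.9 M in a library, which put 374 to 47389 reads behind each value of a member. The retina label held, since the 8 rod markers examined summed to 11295 to 12971 FPKM in db/db and 11026 to 11847 FPKM in wild type. Library db/db 1 stood apart from the other 8, with an array weight of 0.0648 against 0.811 to 2.52 in the others, so log2 changes are given with and without it. The sum of 5 pigment epithelium markers was 335 FPKM in db/db 1, 60.8 to 157 FPKM in db/db 3, 4 and 5 and 94.4 to 150.3 FPKM in wild type, and the part of such cells in the results was not tested. The 5 motile cilium markers (Foxj1, Dnah5, Rsph1, Dnaic1 and Hydin) summed to 3.19 to 4.03 FPKM in db/db and 3.06 to 4.09 FPKM in wild type.

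Levels in wild-type retina spread widely among genes whose products work side by side. The 47 wild-type means ran from 1.58 FPKM (Rpgrip1l) to 99.4 FPKM (Arl3), with a median of 8.67 FPKM, and 34 of the 47 lay above the median of all genes tested. The FPKM steps fit a scaling by all exon bases of a gene, so ranks between genes also depend on that length. For Rpgrip1l it is 14688 bases, against 7009 in its longest transcript. The 3 highest were Arl3, Rpgrip1 at 80.7 ± 3.35 FPKM and Bbs2 at 45.8 ± 1.80 FPKM (SD, n = 5 each). Wild-type libraries were close to each other, with a median coefficient of variation of 4.59% over the members.

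**Figure D1:**
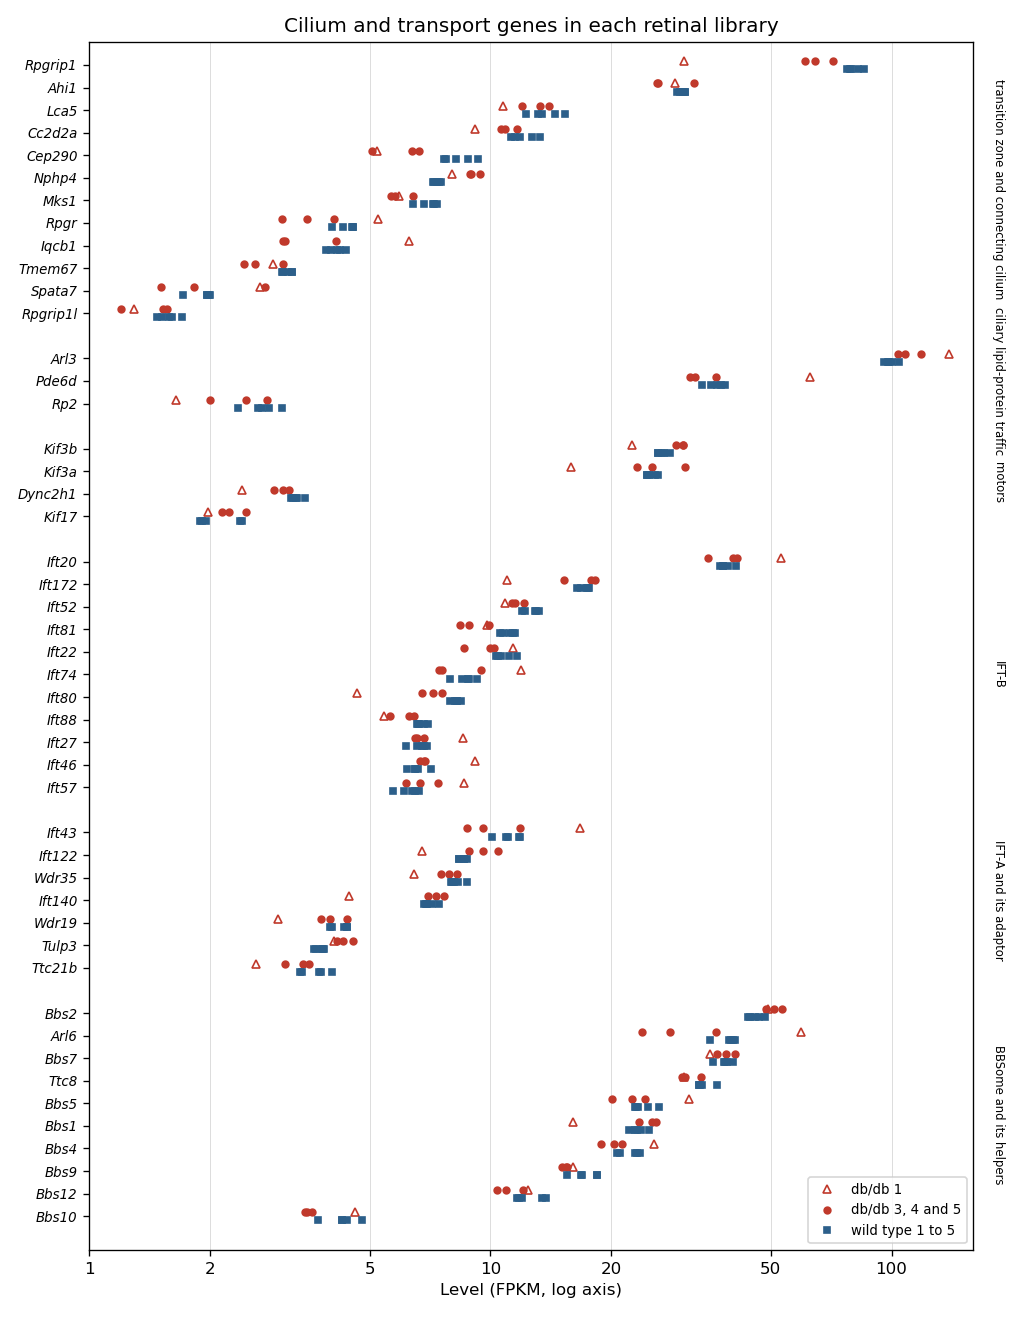
FPKM on a log axis of all 47 members in each library, with db/db libraries as red symbols (db/db 1 as open triangles) above wild-type libraries as blue squares, in role groups and ordered by wild-type mean. Arl3 and Rpgrip1 stand highest, and the open triangles of db/db 1 lie outside the cluster of the other libraries for many members.

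Promoter sequence showed a feature that the choice of members did not use. The X-box is the element bound by RFX factors, which are known to drive ciliary genes, and it joins a pair of short elements across a gap. It was sought as GTNNCC and GGNAAC with 0 to 3 free bases between them, on both strands, in windows from 250 bases before to 50 bases after RefSeq start sites (GRCm38.p6). Of the 43 members with a window, 10 (23.3%) held a match, as did 10 of 47 other cilium genes (21.3%) and 724 of 27025 genes in all (2.68%). The 10 sites printed here, 1 per gene, are those matches, shown so that the matched letters can be read, with the fixed letters of both elements in capitals and the free bases in lower case.
Bbs1: GTcgCCttGGcAAC
Bbs4: GTcgCCcgGGaAAC
Bbs7: GTtgCCttGGaAAC
Ift22: GTcgCCgtGGaAAC
Ift57: GTtgCCtGGtAAC
Ahi1: GTtaCCtaGGcAAC
Lca5: GTaaCCaatGGgAAC
Mks1: GTtgCCagGGgAAC
Nphp4: GTctCCtaGGtAAC
Pde6d: GTgcCCGGcAAC
The Mks1 site lay 24 bases before the start (chr11:87853191-87853204, plus strand) and that of Nphp4 231 bases before one of its RefSeq starts (chr4:152477911-152477924, plus strand). The sites of Ahi1 (chr10:20952568-20952581), Bbs1 (chr19:4906613-4906626), Ift22 (chr5:136908117-136908130) and Ift57 (chr16:49699234-49699246) also read on the plus strand. Those of Bbs4 (chr9:59353472-59353485), Bbs7 (chr3:36613497-36613510), Lca5 (chr9:83441145-83441159) and Pde6d (chr1:86582763-86582774) read on the minus strand. Ift22 and Ift57 each held a second match. No window was found for Ift80, Ift81, Ift122 and Tmem67. A match describes letters and does not show binding.

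The 10 members with a match did not share a direction in the diabetic retina. Their log2 changes, db/db minus wild type on log2(FPKM + 1), ran from -0.21 (Mks1) to 0.23 (Nphp4) with a median of -0.06, against a median of -0.12 in the 33 members whose windows held none. These medians without db/db 1 were -0.08 and -0.09. A second motif was the core TAATCC that CRX and related photoreceptor homeodomain factors bind. It was in 2 of the 43 members (4.65%), Bbs1 and Rpgrip1, against 5 of 47 other cilium genes (10.6%) and 8.14% of all genes. The upstream 250 bases of Rpgrip1, whose FPKM difference was the largest of the 47, carry it as its reverse complement in capitals (chr14:52110653-52110902, plus strand).
Rpgrip1: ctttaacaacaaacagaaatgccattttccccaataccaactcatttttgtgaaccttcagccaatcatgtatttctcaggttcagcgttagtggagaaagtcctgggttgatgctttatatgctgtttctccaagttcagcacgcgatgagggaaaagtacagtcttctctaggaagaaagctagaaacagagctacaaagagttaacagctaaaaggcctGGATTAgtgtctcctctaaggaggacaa
The same stretch of Mks1 (chr11:87852965-87853214, plus strand) holds the X-box match near its end, with capitals for letters fixed on either strand, since this site matches on both.
Mks1: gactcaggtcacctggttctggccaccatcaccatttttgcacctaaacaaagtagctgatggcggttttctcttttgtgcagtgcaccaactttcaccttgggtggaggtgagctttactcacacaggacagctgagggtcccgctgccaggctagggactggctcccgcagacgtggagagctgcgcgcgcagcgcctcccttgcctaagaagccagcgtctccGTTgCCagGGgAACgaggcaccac

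Between db/db and wild type, no member passed the test with all 9 libraries. The smallest adjusted p was that of Cep290 (limma, Benjamini-Hochberg over all 14588 genes, 0.0615), against 0.500% of all genes called at 0.05, or 0.233% called higher and 0.267% called lower in db/db. Limma-voom on recovered reads called 1 member, Cep290, against 0.759% of all genes. At an unadjusted p under 0.05 there were 12 of the 47 (25.5%), 4 higher and 8 lower in db/db, against 19.3% of all genes, 9.36% higher and 9.91% lower. The values of the groups did not overlap in 9 members (19.1%), 3 higher and 6 lower in db/db, against 11.6% of all genes, 5.20% higher and 6.38% lower. Of the 47 log2 changes 31 (66.0%) were below 0, with a median of -0.11, against 49.3% and a median of 0.0035 over all genes.

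Without db/db 1 the fit called 7 of the 47 (14.9%), against 10.6% of all genes. Kif3b and Nphp4 rose, against 4.72% of all genes called higher, and Cep290, Rpgrip1, Ift81, Ift80 and Arl6 fell, against 5.84% called lower. Groups then did not overlap in 14 members (29.8%), 5 higher and 9 lower in db/db, against 21.1% of all genes, 9.63% higher and 11.5% lower. The members' median was -0.10 with 32 of 47 (68.1%) below 0, against -0.02 and 54.3% over all genes. After a correction for GC content in the same 8 libraries the members' median was 0.0062, and 5 members were called, against 4.90% of all genes. These were Nphp4 and Tulp3, higher in db/db (2.56% of all genes), and Ift81, Rpgrip1 and Mks1, lower in db/db (2.34% of all genes). Nphp4, Ift81 and Rpgrip1 were thus called in both fits. With all 9 libraries, array weights called 5 members against 8.27% of all genes, a length correction 2 against 3.52%, and a GC correction 0 against 0.0411%.

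**Figure D2:**
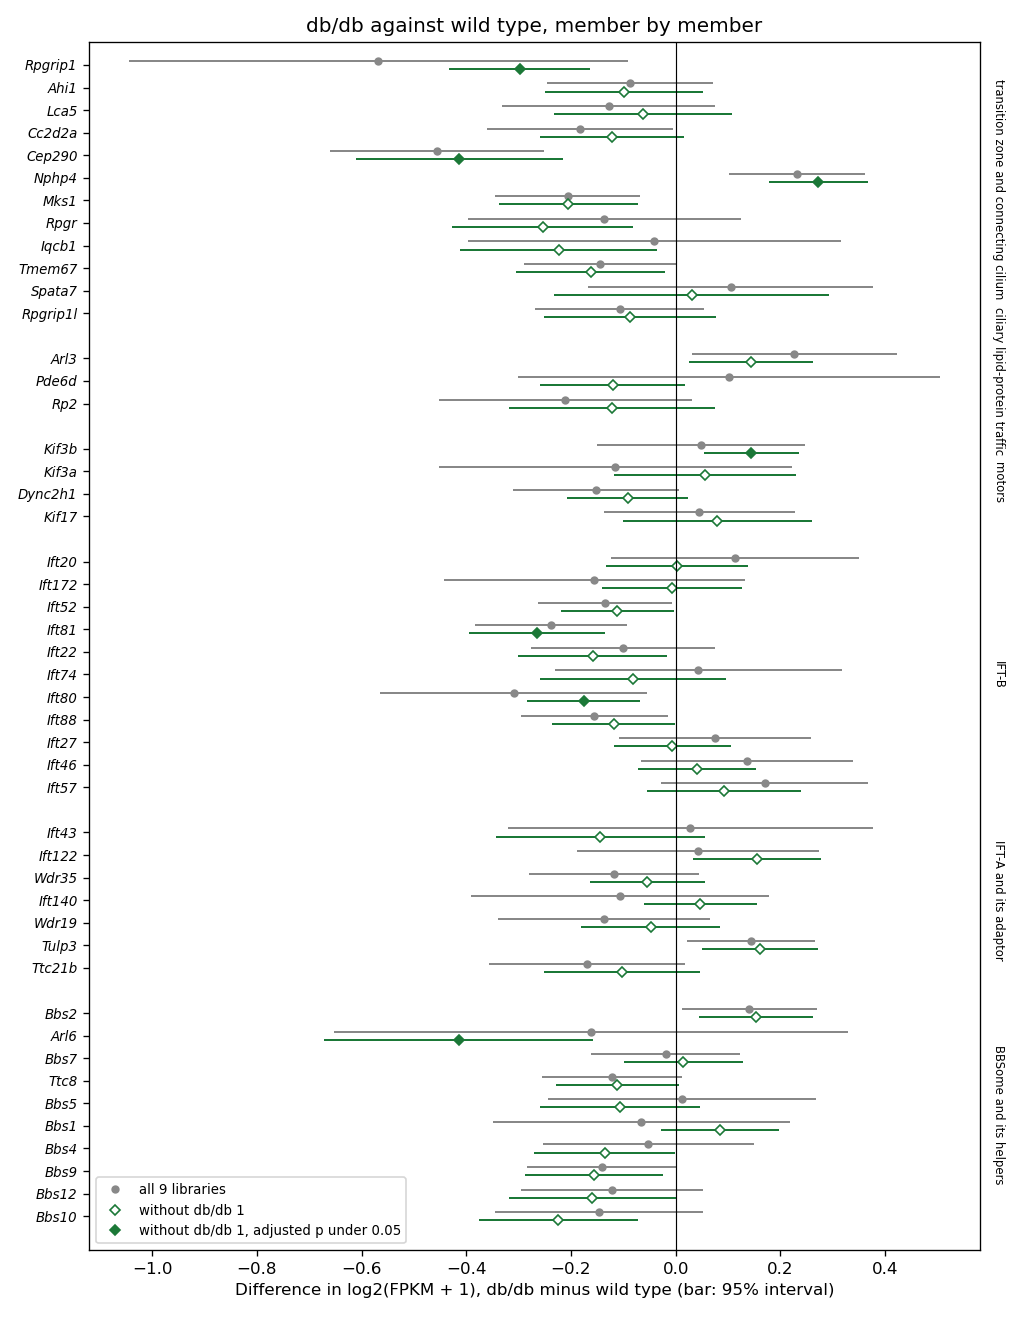
Difference in log2(FPKM + 1), db/db minus wild type, for each member with its 95% interval, with all 9 libraries (grey circles) and without db/db 1 (green diamonds, filled where the adjusted p was under 0.05). Most points lie left of 0, and 7 diamonds are filled, 5 of them left of 0.

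In the transition zone and connecting cilium group, 10 of 12 log2 changes were below 0, and none passed with all 9 libraries. Rpgrip1, the scaffold that holds RPGR in the connecting cilium, is mutated in Leber congenital amaurosis. It stood at 30.4, 60.8, 71.6 and 64.3 FPKM in db/db 1, 3, 4 and 5, against 79.2, 82.7, 78.8, 77.3 and 85.5 FPKM in wild type 1 to 5. Every db/db library lay below every wild-type library, and db/db 1 lay far below the other 3. The mean was 56.8 ± 18.1 FPKM (SD, n = 4) in db/db and 80.7 ± 3.35 FPKM (SD, n = 5) in wild type, and the log2 change was -0.57 (limma adjusted p = 0.195, SE 0.21, range over 22 alternatives 0.0211 to 0.442). Without db/db 1 it fell by 0.30 on the log2 scale (SE 0.06, adjusted p = 0.0211), or to 0.812 of the wild-type mean. Part of its exons, 1057 bases or 8.70%, is overlapped on the opposite strand by Supt16, which had 20.8 to 24.0 FPKM in db/db and 22.8 to 25.7 FPKM in wild type (log2 change -0.13, adjusted p = 0.303), and the strand of counting is not given in the sources used here.

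Cep290, a large protein of the links between the ciliary membrane and the microtubules, showed the same order. It stood at 5.21, 6.63, 6.39 and 5.08 FPKM in db/db 1, 3, 4 and 5, against 8.20, 8.78, 7.67, 7.74 and 9.30 FPKM in wild type 1 to 5. The 4 db/db values lay below all wild-type values, and db/db 1 was not the lowest of them. The means of 5.83 ± 0.796 FPKM (SD, n = 4) in db/db and 8.34 ± 0.697 FPKM (SD, n = 5) in wild type gave a log2 change of -0.46 (limma adjusted p = 0.0615, SE 0.09, range 0.0251 to 0.428). Without db/db 1 it fell by 0.41 (SE 0.09, adjusted p = 0.0251), but with the GC correction as well the log2 change was -0.22 and did not pass (adjusted p = 0.0894). Its longest transcript has a GC content of 38.7%, below that of all members but Rp2 and Spata7. Of its exon bases, 7.58% are shared on the opposite strand with 4930430F08Rik (2.16 FPKM in db/db and 2.39 FPKM in wild type).

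Nphp4, a scaffold of the nephrocystin module at the transition zone, had the opposite order. It had 8.01, 8.97, 8.88 and 9.43 FPKM in db/db 1, 3, 4 and 5, against 7.18, 7.55, 7.37, 7.43 and 7.24 FPKM in wild type 1 to 5. All 4 db/db values lay above the wild-type ones, at 8.82 ± 0.592 FPKM (SD, n = 4) in db/db and 7.35 ± 0.148 FPKM (SD, n = 5) in wild type, and the log2 change was 0.23 (limma adjusted p = 0.0822, SE 0.06, range 0.0127 to 0.599). It rose by 0.27 without db/db 1 (SE 0.04, adjusted p = 0.0127) and by 0.17 with the GC correction as well (adjusted p = 0.0461). With the GC correction in all 9 libraries the log2 change was 0.09 and did not pass (limma adjusted p = 0.599). The GC content of its longest transcript is 59.3%, above that of all members but Kif17.

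Mks1, a B9-domain protein of the module that gates the cilium's membrane, had 5.92, 5.65, 5.78 and 6.42 FPKM in db/db 1, 3, 4 and 5, against 6.42, 7.38, 7.18, 6.83 and 7.24 FPKM in wild type 1 to 5. The groups met at db/db 5 and wild type 1 and were apart elsewhere. Its log2 change was -0.21 with all 9 libraries (SE 0.06, limma adjusted p = 0.120, range 0.0335 to 0.465) and -0.21 without db/db 1 (adjusted p = 0.0543), and with the GC correction as well it passed at -0.28 (adjusted p = 0.0335).

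The groups overlapped for the other 8 transition zone genes. Ahi1, the Joubert syndrome protein jouberin, had 26.1 to 32.1 FPKM in db/db and 29.2 to 30.6 FPKM in wild type. Lca5, or lebercilin, had 10.7 to 14.0 FPKM in db/db and 12.2 to 15.3 FPKM in wild type, and Cc2d2a, a C2-domain protein, 9.16 to 11.6 FPKM in db/db and 11.2 to 13.3 FPKM in wild type. In the case of Rpgr, the retinitis pigmentosa GTPase regulator that Rpgrip1 tethers, db/db 1 was the highest of all 9 at 5.26 FPKM, db/db 3, 4 and 5 had 4.07, 3.49 and 3.03 FPKM, and wild type 4.02 to 4.55 FPKM. Iqcb1, a partner of Cep290, was also highest in db/db 1, with 6.28 FPKM there, 3.03 to 4.13 FPKM in the other db/db libraries and 3.89 to 4.37 FPKM in wild type. Tmem67 (2.44 to 3.04 FPKM in db/db and 3.02 to 3.21 FPKM in wild type), Spata7, an RPGRIP1-binding protein of the connecting cilium (1.51 to 2.74 FPKM in db/db and 1.71 to 1.997 FPKM in wild type), and Rpgrip1l (1.1997 to 1.56 FPKM in db/db and 1.47 to 1.70 FPKM in wild type) were the lowest of the group. Exon bases are shared by Rpgr with Srpx (208, same strand) and by Tmem67 with Rbm12b2 (289, opposite strand).

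**Figure D3:**
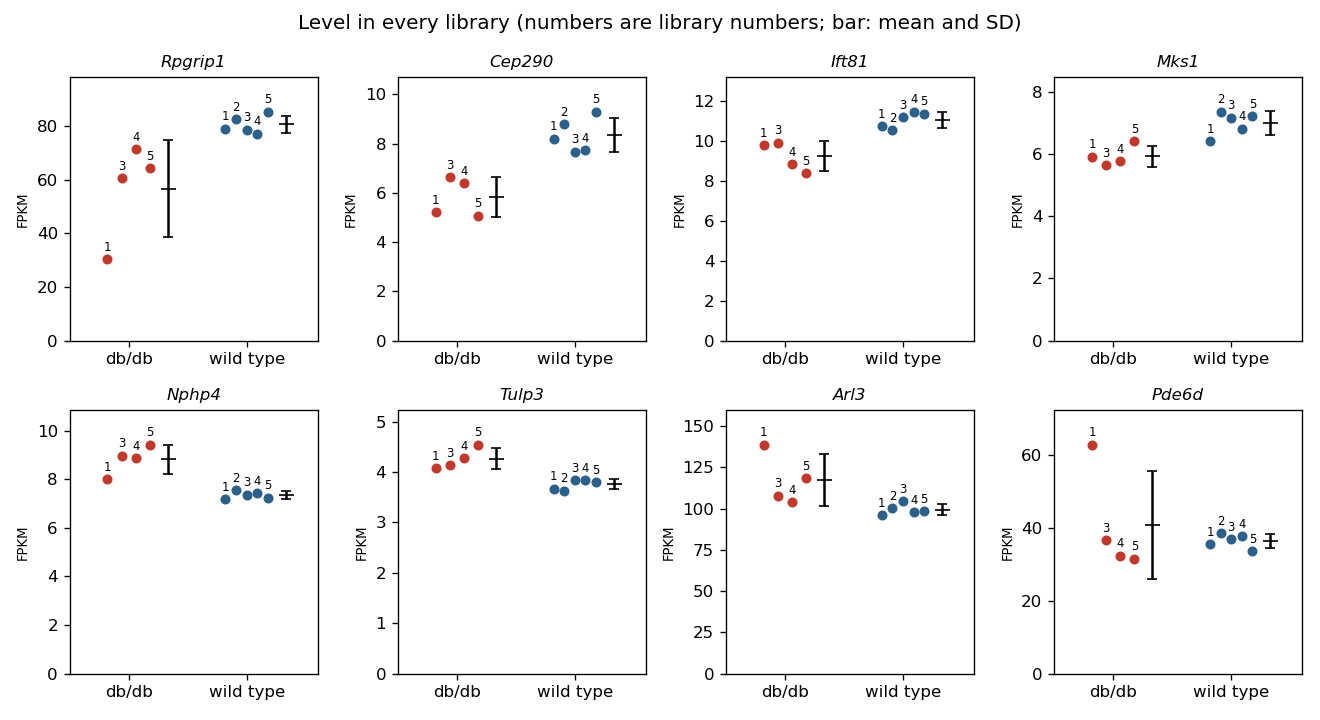
FPKM of 8 members in each library, db/db left and wild type right, with library numbers above the points and the mean and SD as bars. Rpgrip1, Cep290 and Ift81 have no db/db value above the lowest wild-type value, Nphp4 and Tulp3 have none below the highest, and Arl3 and Pde6d are highest in db/db 1.

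The 3 genes of ciliary lipid-protein traffic handle lipid-anchored proteins such as the phosphodiesterase and transducin subunits of the outer segment. Pde6d binds the lipid tail of a cargo, the GTPase Arl3 releases it inside the cilium, and Rp2 switches Arl3 off. Arl3 had 139, 108, 104 and 118 FPKM in db/db 1, 3, 4 and 5, against 96.0, 100.4, 104, 97.8 and 98.6 FPKM in wild type 1 to 5. Only db/db 4 and wild type 3 crossed, and the log2 change of 0.23 did not pass (SE 0.09, limma adjusted p = 0.204, range 0.0877 to 0.530). It was 0.14 without db/db 1 (SE 0.05, adjusted p = 0.102). Pde6d was split within db/db, with 62.7 FPKM in db/db 1 and 36.5, 32.3 and 31.5 FPKM in db/db 3, 4 and 5, against 33.6 to 38.4 FPKM in wild type. Its log2 change was 0.10 with all 9 libraries (SE 0.18, adjusted p = 0.773) and -0.12 without db/db 1 (SE 0.06, adjusted p = 0.213, range 0.178 to 0.991), so its direction rests on that library. Rp2 was far lower than its partner GTPase, at 2.22 ± 0.495 FPKM (SD, n = 4) in db/db and 2.70 ± 0.246 FPKM (SD, n = 5) in wild type, a difference of -0.21 on the log2 scale (SE 0.11, adjusted p = 0.3102, range 0.171 to 0.889) that was -0.12 without db/db 1 (adjusted p = 0.380).

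Among the motors, the partner subunits of heterotrimeric kinesin stood at nearly equal levels in wild type, Kif3a at 25.2 ± 0.712 FPKM and Kif3b at 26.9 ± 0.760 FPKM (SD, n = 5 each). Kif3b had 22.6, 29.0, 30.1 and 30.3 FPKM in db/db 1, 3, 4 and 5, against 26.2, 26.8, 27.1, 26.2 and 28.0 FPKM in wild type 1 to 5. The last 3 db/db values lay above all wild-type values and db/db 1 below them, so the log2 change was 0.05 with all 9 libraries (SE 0.09, limma adjusted p = 0.779). It rose by 0.14 without db/db 1 (SE 0.04, adjusted p = 0.0468, range 0.0468 to 0.960), while adding the GC correction gave a log2 change of 0.16 that did not pass (adjusted p = 0.0585). Kif3a ranged more widely, at 15.9 to 30.6 FPKM in db/db and 24.5 to 26.1 FPKM in wild type, with a log2 change of -0.12 (SE 0.15, adjusted p = 0.689) that became 0.06 without db/db 1 (adjusted p = 0.662, range 0.275 to 0.818). Dync2h1, the heavy chain of the retrograde dynein, had 2.40 to 3.14 FPKM in db/db, all below the 3.19 to 3.46 FPKM of wild type, with a log2 change of -0.15 (SE 0.07, adjusted p = 0.271, range 0.214 to 0.980). It was -0.09 without db/db 1 (adjusted p = 0.252) and 0.0062 with the GC correction as well. Kif17, a second ciliary kinesin, was low in both groups at 1.98 to 2.47 FPKM in db/db and 1.89 to 2.40 FPKM in wild type (log2 change 0.05, SE 0.08, adjusted p = 0.777, and 0.08 without db/db 1, adjusted p = 0.537, range 0.537 to 0.968). Kif17 shares 74 exon bases on the same strand with Sh2d5, which averaged 19.8 FPKM, and the part of Sh2d5 in these values was not tested.

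The IFT-B particle travels outward with kinesin. Its 11 genes spanned 6.26 FPKM (Ift57) to 38.7 FPKM (Ift20) in wild type, although the proteins share one complex, and Ift20 is also known to work at the Golgi. Ift81, whose protein pairs with that of Ift74 to carry tubulin, had 9.82, 9.94, 8.86 and 8.40 FPKM in db/db 1, 3, 4 and 5, against 10.8, 10.6, 11.2, 11.5 and 11.4 FPKM in wild type 1 to 5. The groups did not overlap, and the log2 change was -0.24 (SE 0.06, limma adjusted p = 0.0974, range 0.0259 to 0.434). It fell by 0.26 without db/db 1 (adjusted p = 0.0259) and by 0.17 with the GC correction as well (adjusted p = 0.0480). Its partner Ift74 was split within db/db, at 11.9, 9.48, 7.58 and 7.44 FPKM in db/db 1, 3, 4 and 5. Libraries db/db 1 and 3 lay above the 7.92 to 9.24 FPKM of wild type and db/db 4 and 5 below it.

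Ift80 had 4.64, 6.74, 7.58 and 7.19 FPKM in db/db 1, 3, 4 and 5, against 8.28, 7.95, 8.17, 8.25 and 8.47 FPKM in wild type 1 to 5, again without overlap. Its log2 change was -0.31 (SE 0.11, limma adjusted p = 0.186, range 0.0447 to 0.798). It fell by 0.18 without db/db 1 (SE 0.05, adjusted p = 0.0447), and GC correction on top left -0.03 (adjusted p = 0.798). Ift88, the particle subunit whose loss in the mouse Tg737 line stunts cilia and outer segments, had 5.42 to 6.47 FPKM in db/db, below the 6.57 to 6.98 FPKM of wild type (log2 change -0.16, SE 0.06, adjusted p = 0.218, and -0.12 without db/db 1, adjusted p = 0.158, range 0.158 to 0.886). The other 7 IFT-B genes overlapped between the groups. Among them Ift20, Ift27, Ift46 and Ift57 had their highest value in db/db 1, at 53.0, 8.54, 9.16 and 8.58 FPKM, against wild-type maxima of 40.9, 6.93, 7.13 and 6.62 FPKM. Ift172 had its lowest there, at 10.98 FPKM against 16.4 to 17.6 FPKM in wild type, while Ift52 (10.8 to 12.1 FPKM in db/db, 11.999 to 13.2 FPKM in wild type) and Ift22 (8.62 to 11.4 FPKM in db/db, 10.3 to 11.6 FPKM in wild type) had ranges that met those of wild type.

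The IFT-A particle returns cargo with dynein and, with its adaptor Tulp3, brings membrane receptors into the cilium. None of these 7 genes passed with all 9 libraries or without db/db 1. Tulp3 had 4.08, 4.14, 4.28 and 4.55 FPKM in db/db 1, 3, 4 and 5, against 3.67, 3.63, 3.84, 3.84 and 3.81 FPKM in wild type 1 to 5. Every db/db value was above every wild-type value, for a log2 change of 0.14 (limma adjusted p = 0.194, SE 0.05, range 0.0457 to 0.533) that passed without db/db 1 only when GC content was corrected (0.22, adjusted p = 0.0457). Ttc21b had 2.60 to 3.53 FPKM in db/db and 3.36 to 4.02 FPKM in wild type (log2 change -0.17, SE 0.08, adjusted p = 0.296), and Wdr35 had 6.45 to 8.25 FPKM in db/db and 7.97 to 8.77 FPKM in wild type (-0.12, SE 0.07, adjusted p = 0.388). These log2 changes without db/db 1 were -0.10 for Ttc21b (adjusted p = 0.325, range 0.193 to 0.865) and -0.05 for Wdr35 (adjusted p = 0.483, range 0.341 to 0.988). In db/db 1 the core subunits Ift140, Ift122 and Wdr19 were lowest of all 9 libraries, at 4.45, 6.76 and 2.95 FPKM against wild-type minima of 6.83, 8.34 and 3.98 FPKM. Ift43, whose longest transcript of 838 bases is the shortest of the 47, was highest there, at 16.7 FPKM against 10.1 to 11.9 FPKM in wild type. In db/db 3, 4 and 5 Ift122 had 8.84, 9.60 and 10.5 FPKM, above all wild-type values (8.34 to 8.75 FPKM). Ift140 and Wdr19 overlapped wild type in those libraries.

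The BBSome and its helpers had 10 members, 8 of them with a log2 change below 0 and none past the threshold with all 9 libraries. Bbs2 had 49.2, 53.4, 48.7 and 51.1 FPKM in db/db 1, 3, 4 and 5, against 44.0, 44.3, 48.4, 46.7 and 45.6 FPKM in wild type 1 to 5. The groups did not overlap, but the log2 change of 0.14 did not pass (SE 0.06, limma adjusted p = 0.222, range 0.0667 to 0.848), nor did that of 0.15 without db/db 1 (adjusted p = 0.0667). Bbs9 (15.1 to 16.1 FPKM in db/db, 15.6 to 18.5 FPKM in wild type) and Ttc8 (30.1 to 33.5 FPKM in db/db, 33.1 to 36.6 FPKM in wild type) had log2 changes of -0.14 (SE 0.06, adjusted p = 0.260) and -0.12 (SE 0.06, adjusted p = 0.288). With db/db 1 left out they were -0.16 for Bbs9 (adjusted p = 0.107, range 0.107 to 0.543) and -0.11 for Ttc8 (adjusted p = 0.178, range 0.169 to 0.768). Bbs7 stayed at 35.2 to 40.7 FPKM in db/db and 35.8 to 40.2 FPKM in wild type. Bbs1, which contacts the recruiting GTPase, had 16.1 FPKM in db/db 1, 23.5 to 25.9 FPKM in the other db/db libraries and 22.1 to 24.8 FPKM in wild type, while Bbs4 and Bbs5 were highest in db/db 1, at 25.6 and 31.3 FPKM, against wild-type maxima of 23.6 and 26.3 FPKM. The chaperonin-like genes that assemble the complex, Bbs10 and Bbs12, had 3.46 to 4.59 and 10.4 to 12.4 FPKM in db/db, and 3.71 to 4.79 and 11.7 to 13.8 FPKM in wild type.

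Arl6, the GTPase that brings the BBSome to membranes, had the widest spread in db/db of the 47 after Rpgrip1 by SD. It stood at 59.5, 36.5, 28.1 and 23.8 FPKM in db/db 1, 3, 4 and 5, against 40.2, 35.3, 39.2, 40.8 and 39.7 FPKM in wild type 1 to 5. Library db/db 1 lay above all wild-type libraries and db/db 4 and 5 below all of them. Its log2 change was -0.16 with all 9 libraries (SE 0.22, limma adjusted p = 0.701), and it fell by 0.41 without db/db 1 (SE 0.11, adjusted p = 0.0485, range 0.0485 to 0.972), while adding the GC correction gave a log2 change of -0.27 that did not pass (adjusted p = 0.0973).

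In db/db 1 the members' differences from wild type varied with transcript length. Of the 12 members whose longest transcript is under 2500 bases, 8 were above the wild-type mean in db/db 1, with a median difference of 0.39 on the log2 scale, and of the 13 over 5000 bases 1 was above it, with a median of -0.40. The same classes of all genes tested had medians of 0.41 and -0.35. Across the 47 members the correlation of the difference with log2 length was -0.74 for library db/db 1, while libraries db/db 3, 4 and 5 gave -0.14, 0.24 and -0.12. Over all genes tested it was -0.35, -0.06, 0.11 and -0.07 in db/db 1, 3, 4 and 5. Genes are not independent replicates and the points share a library, so these values are a description. The members' correlation with GC content was 0.01, 0.06, 0.41 and 0.60 in db/db 1, 3, 4 and 5, and -0.30 to 0.32 in wild type. Over all genes tested it was 0.18, 0.20, 0.29 and 0.50 in db/db 1, 3, 4 and 5, and -0.12 to 0.13 in wild type. The part of length and GC content in the differences above was not tested beyond the corrected fits.

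**Figure D4:**
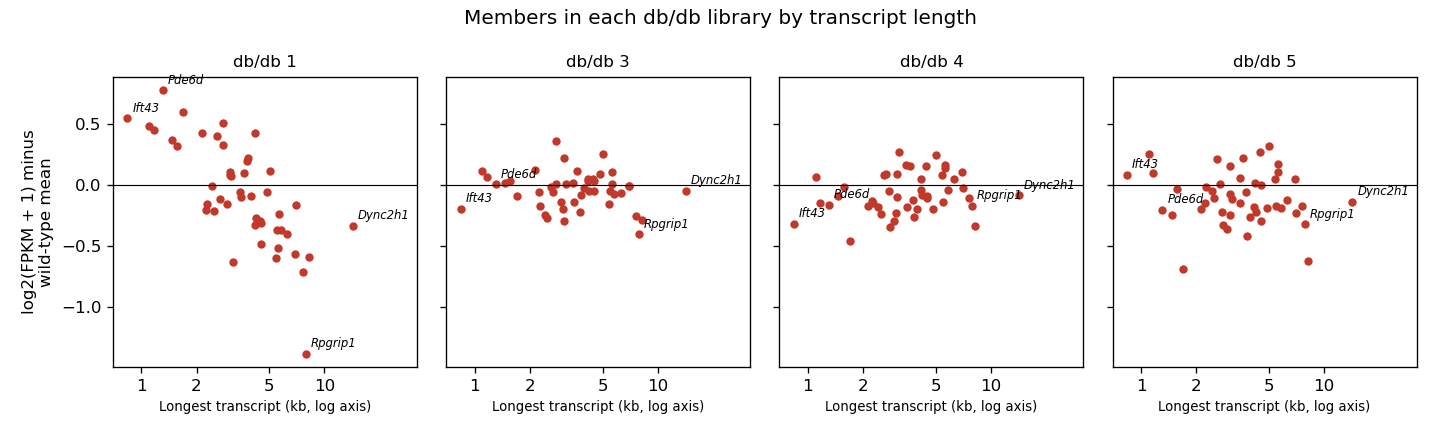
Difference of each member from its wild-type mean on log2(FPKM + 1), against the length of its longest transcript on a log axis, in each db/db library. In db/db 1 short members such as Pde6d and Ift43 lie above 0 and long ones such as Rpgrip1 below it, a slope that the other 3 libraries do not show.

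Other genes of the same pathways, listed by role, were read in the same fits. Of 55 listed, 53 were in the table and 52 tested, and none passed with all 9 libraries. Their median log2 change was -0.05 with all 9 libraries, with 34 of 52 below 0, and -0.05 without db/db 1. Among those with the smallest p were Lztfl1, which regulates BBSome traffic (3.66 ± 0.323 FPKM in db/db, n = 4, and 4.45 ± 0.145 FPKM in wild type, n = 5, SD, log2 change -0.23, limma adjusted p = 0.104), and the connecting cilium gene Fam161a (46.95 ± 3.25 FPKM in db/db and 53.8 ± 1.69 FPKM in wild type, -0.20, adjusted p = 0.143). Without db/db 1, 6 of the 52 (11.5%) were lower and 0 higher, against 5.84% and 4.72% of all genes. They were Bbip1, Lztfl1 (-0.24), Ttc30a1, Kifap3, Tmem237 and Fam161a (-0.23 on the log2 scale).

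For most members the data bounded the size of the difference. The 95% interval of the db/db to wild-type ratio on the log2(FPKM + 1) scale lay within 1.5-fold either way for 44 of the 47 with all 9 libraries and for 45 without db/db 1. With all 9 libraries the interval excluded no difference for 12 of the 47 (25.5%), against 19.3% of all genes. The count without db/db 1 is not reported here, since the share over all genes was not taken for it. Over all genes, those called at an adjusted p under 0.05 went from 73 with all 9 libraries to 1540 without db/db 1. The added 1 shrinks differences of low genes, and 12 members had wild-type means under 5 FPKM.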

How the data were processed

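Retinal RNA was prepared with a column kit and SMARTER libraries, per the labels. The authors deposited FPKM values for 35397 genes in 9 libraries, with mm10 as the build, per the submitters' processing notes. For the aligner, counter, annotation and strand, nothing is stated (not given in the sources used here). Columns named Control or DR were matched to wild type or db/db by number, an inference from the names. Symbols and positions are from GENCODE M21 (34499 identifiers matched), and promoters from RefSeq.

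Values were tested as log2(FPKM + 1), which understates changes of low genes, with limma 3.58.1 (R 4.3.3; lmFit, eBayes with an intensity trend) over the 14588 genes that averaged 1 FPKM or more, and adjusted by Benjamini-Hochberg. Exon length times FPKM gave whole reads within 0.1 for 99.0% to 99.1% of low values. The fit was also run on simulated data with independent noise of the same spread in every library. Those data held no library like db/db 1 and no length or GC trend, so they do not speak for these features.

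Members, lists, tests and alternatives were chosen with earlier results of these data known, and the promoter motifs, taken from textbook knowledge, after the values were seen. Log2 changes are given for the 3 members of each role group with the smallest p and for those called without db/db 1. For other cilium genes the rule took the 3 with the smallest p, of which 1 is not reported here. Among the alternatives were other pseudocounts, filters, scalings and weights, GC and length corrections, limma-voom on recovered reads, a replicate block, and the omission of each library in turn.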

Additional observations from a re-analysis of the deposited data

Results flagged for a closer look

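In 9 of 94 sets of values (47 members in db/db and in wild type) 1 library lay far from the rest of its group by Dixon's ratio. The cut is one that chance alone would pass in about 1 in 20 independent sets. These sets share libraries and are not independent, so the count cannot be read against that rate. Library db/db 1 gave 5 of the 9. It was highest for Bbs10 at 4.59 FPKM (next 3.597), Ift27 at 8.54 FPKM (next 6.83), Ift46 at 9.16 FPKM (next 6.85) and Pde6d at 62.7 FPKM (next 36.5), and lowest for Kif3b at 22.6 FPKM (next 29.0). Ttc8 was highest in db/db 5 at 33.5 FPKM (next 30.6), and in wild type 4 at 36.6 FPKM (next 33.7). In wild type, Arl6 was lowest in wild type 2 at 35.3 FPKM (next 39.2) and Spata7 in wild type 1 at 1.71 FPKM (next 1.96).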

How the results depend on the processing

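The count of members called, 0 with all 9 libraries, became 5 with array weights, 2 with length correction, 5 with GC correction and db/db 1 left out together and 1 with limma-voom on recovered reads, and ran from 0 to 7 when libraries were left out singly (7 without db/db 1). The count over all genes, 73, became 9 with no filter, 30 with a filter at a mean of 5 FPKM, 1206 with array weights, 2 with the replicate number as a block, 6 with GC correction, 513 with length correction, 715 with GC correction and db/db 1 left out together and 110 with limma-voom on recovered reads, and ran from 4 (without wild type 2 or db/db 3) to 1540 (without db/db 1) when libraries were left out singly. The block called 0 members. Same-numbered libraries had correlations of their deviations of 0.0434, 0.0455, -0.18 and 0.134, and differently numbered ones ran from -0.21 to 0.18. These values cannot decide whether the numbers pair the samples, and the labels do not say.

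Of 457 values of the 21 members with a log2 change, 420 kept their direction and their side of the threshold, 20 passed, and 17 changed sign, none of those past the threshold. With GC correction and db/db 1 left out the values that changed sign were Dync2h1 0.0062, Ift88 0.0258, Kif17 -0.0293, Kif3a 0.0961, Pde6d -0.15, Rp2 0.0748, Ttc21b 0.0418 and Wdr35 0.0015. The others were Kif3a 0.0603 and Pde6d -0.0961 with array weights, Dync2h1 0.0035 and Pde6d -0.0243 with length correction, Kif17 -0.10 with GC correction and Kif3b -0.0202 with quantile normalization. With libraries left out singly, Kif3a ran from -0.2443 (without db/db 4) to 0.056 (without db/db 1), Pde6d from -0.1204 (without db/db 1) to 0.2035 (without db/db 5), and Arl6 from -0.4143 (without db/db 1) to 0.0142 (without db/db 5). The cause was not tested. The fewest reads behind a value were 374, for Kif17.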
